A study of Homo sapiens with 12 samples.

Results

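ETV1, ETV4 and ETV5 are the 3 members of the PEA3 subfamily of ETS transcription factors, and they were taken by gene symbol from the 14599 named genes measured on the arrays. Each had 1 probe set. Messenger RNA was measured on 12 arrays in Hs695T, an established human melanoma cell line grown in RPMI medium with serum, after 24 h of treatment. In the vehicle group the cells received DMSO. In the MAPKi group they received 100 nM dabrafenib, a BRAF inhibitor, with 10 nM trametinib, a MEK inhibitor. The HDACi group was given 1 µM of the class I histone deacetylase (HDAC) inhibitor entinostat, and the combination group received all 3 agents. Every group had 3 arrays. Sample titles present them as biological replicates while the series description speaks of technical ones, so each p-value covers only the spread between these arrays.

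ETS factors bind DNA through a conserved ETS domain that recognises a GGAA core. PEA3 proteins act at the end of receptor tyrosine kinase, RAS and ERK signalling: ERK phosphorylation raises their activity, and ERK also relieves their genes from the HMG-box repressor Capicua (CIC), whose DNA site is an octamer. Their protein is removed by a ubiquitin ligase built from COP1, DET1 and cullin 4. In melanoma ETV1 is known as an oncogene that can raise MITF, the melanocyte lineage factor, and ETV4 and ETV5 are widely used as readouts of ERK output. The arrays measure RNA and not the amount or phosphorylation of these proteins.

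The regulatory sequence of ETV1 is shown as background, since CIC is a known repressor of PEA3 genes. Whether CIC had a part in the changes below was not tested. RefSeq windows of 300 bases around annotated start sites (GRCh38.p14) were at hand for ETV1, with 6 windows, and promoters of the other members were not used here. Capitals mark the ETS core CCGGAA and the CIC octamer TGAATGGA, and both sequences read 5′ to 3′ along the gene's strand.
ETV1 window 1, chr7:13991376-13991675, minus strand: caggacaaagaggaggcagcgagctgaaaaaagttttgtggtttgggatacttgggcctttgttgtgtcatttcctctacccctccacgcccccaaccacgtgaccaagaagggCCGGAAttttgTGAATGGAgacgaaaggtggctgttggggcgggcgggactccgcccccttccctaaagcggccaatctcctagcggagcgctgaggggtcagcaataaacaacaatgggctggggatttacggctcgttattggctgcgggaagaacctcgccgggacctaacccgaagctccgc
ETV1 window 3, chr7:13990657-13990956, minus strand: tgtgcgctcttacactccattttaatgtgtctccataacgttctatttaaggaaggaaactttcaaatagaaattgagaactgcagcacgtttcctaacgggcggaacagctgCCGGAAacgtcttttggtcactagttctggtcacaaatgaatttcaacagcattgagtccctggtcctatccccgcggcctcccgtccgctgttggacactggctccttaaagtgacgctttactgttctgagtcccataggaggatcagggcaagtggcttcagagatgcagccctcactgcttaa

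Window 1 held both motifs. Its ETS core began at base 115 of the window, at -136 from the start site, and its CIC octamer began at base 126, at -125. Window 3 held an ETS core at -137. Window 4 (chr7:13990653-13990952) overlaps window 3 and holds the same core, at -141 from its own start, whereas windows 2, 5 and 6 held none of the motifs searched. Those were the CIC octamers TGAATGAA and TGAATGGA, CCGGAA, the AP-1 site TGANTCA and the CRE site TGACGTCA, each on both strands. Over all 35116 RefSeq promoter windows, TGAATGGA was present in 1.03%, TGAATGAA in 1.65%, CCGGAA in 17.2%, TGANTCA in 7.71% and TGACGTCA in 1.85%. A CIC octamer of either spelling stood in a window of 303 of the 10571 measured genes that had windows, or 2.87%. Among other genes of ERK output it was present for EPHA2 and MAFF, of 8 with a window, and among other ETS factors for SPDEF, of 16. A letter match is a description of the sequence and not evidence of binding.

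Signal was lower on most of the array wherever MAPKi was given, which bears on every value of the members. The median intensity of an array lay between 80.3 and 92.7 in vehicle, between 55.1 and 60.9 with MAPKi, between 72.1 and 76.6 with HDACi and between 46.3 and 53.5 with the combination. How the deposited values were scaled between arrays is not stated, so changes are given on the deposited log2 scale together with those after quantile normalization, which equalises the arrays, and after subtraction of each array's median over 6 measured housekeeping genes. The median log2 change of all genes with MAPKi was -0.48 on the deposited scale, 0.01 after quantile normalization and 0.58 after housekeeping subtraction. The 6 housekeeping genes, of 12 listed, all passed as lower with MAPKi, at a median of -1.03 on the deposited scale. After quantile normalization 4 of them were lower and 1 higher, at a median of -0.27. Housekeeping subtraction thus rests on genes that fell with MAPKi, and it moves the changes with MAPKi upward. Of the melanocyte markers, S100B and SOX10 were bright in vehicle, above 99.6% and 96.1% of genes. MITF, PMEL and EDNRB lay above 44.6%, 44.2% and 40.8%, and MLANA, TYR and TYRP1 were near the dim end, above 15.3%, 10.6% and 7.97%. Among markers of other lineages, EPCAM, KRT14 and KRT5 were dim, above 35.4%, 31.9% and 15.9% of genes, while the lysosomal and macrophage gene CD68 was above 83.8%. These positions place a probe set within the array's signal and do not compare RNA amounts between genes.

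All 3 PEA3 genes fell steeply with BRAF and MEK inhibition. ETV4 and ETV5 kept 3.86% and 3.76% of their vehicle intensity, and ETV1 kept 5.71%. With HDAC inhibition alone, ETV4 was at 49.6% of vehicle, ETV5 at 65.4% and ETV1 at 69.5% on the deposited scale. The fall of ETV4 passed under each alternative, but that of ETV1 was lost under 4 of 21 alternatives (adjusted p up to 0.565) and that of ETV5 under 2 (adjusted p up to 0.259). When entinostat was added to MAPKi, ETV1 and ETV4 were slightly higher than with MAPKi alone, and ETV5 was not separable from it. In bulk RNA, less of a transcript in every cell and fewer cells that make it cannot be told apart.

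ETV1, the member tied to the melanocyte lineage, had deposited intensities of 467.7, 389.0 and 408.7 on the vehicle arrays. With MAPKi it read 22.5, 31.4 and 19.6. The vehicle and MAPKi arrays were far apart. ETV4, the founding member of the family, read 872.4, 674.5 and 861.5 in vehicle. Its MAPKi arrays read 32.02, 31.98 and 28.52, so here too no array of one group came near the other. ETV5, a partner of ETV4 in FGF responses of developing tissue, read 710.7, 525.7 and 708.3 in vehicle and 20.09, 29.99 and 23.38 with MAPKi. Vehicle replicate 2 was the lowest of its group for all 3 genes. The share of all genes whose vehicle and MAPKi arrays do not overlap was not counted.

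**Figure D1:**
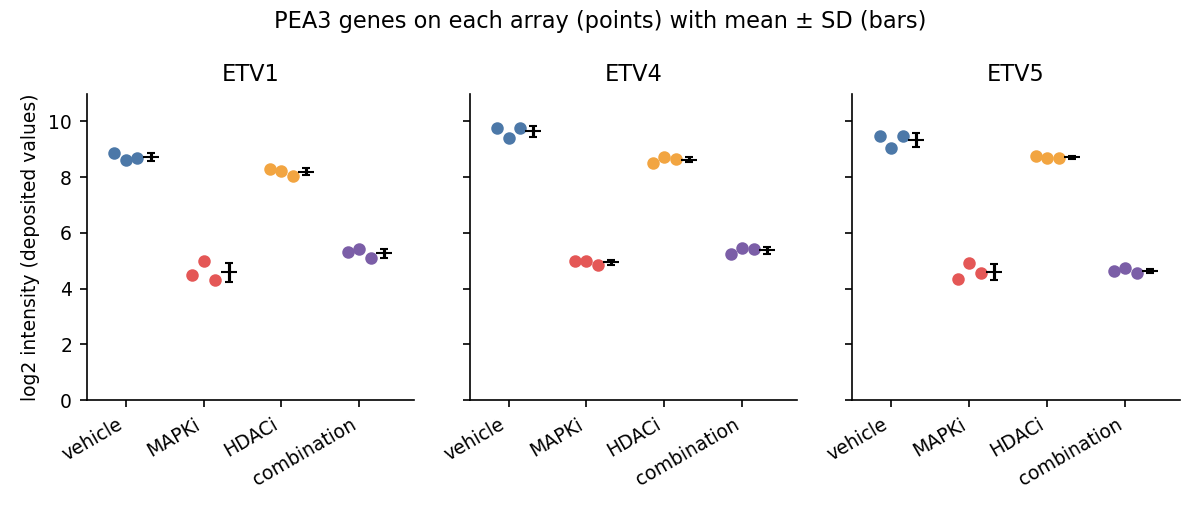
Log2 of the deposited intensity of ETV1, ETV4 and ETV5 (vertical axis) on each of the 12 arrays, by group, with the group mean ± SD of 3 arrays as a bar beside the points. The MAPKi and combination arrays form a low set, well below the vehicle and HDACi arrays for each gene.

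With MAPKi the log2 change from vehicle was -4.13 ± 0.15 for ETV1 (limma standard error, adjusted p = 8.95e-12), a 17.5-fold fall. ETV4 changed by -4.69 ± 0.12 (adjusted p = 1.03e-13), which is 25.9-fold lower. For ETV5 the change was -4.73 ± 0.14 (adjusted p = 8.92e-13), or 26.6-fold lower. Falls of this direction were common, since 66.2% of all genes passed as lower and 2.97% as higher, so the count of members that passed says little. Size set them apart as a description: ordered from the deepest fall, ETV5 stood 4, ETV4 stood 5 and ETV1 stood 7 among 14599 genes. After quantile normalization these positions were 4, 5 and 8, with changes of -3.98, -3.93 and -3.37. Housekeeping subtraction gave -3.67, -3.63 and -3.07. Over all genes the split between higher and lower calls depended on the scaling, from 434 against 9660 on the deposited scale to 2191 against 2044 after quantile normalization and 11364 against 819 after housekeeping subtraction. In each comparison the share of higher calls after subtraction of the array median lay between those of the deposited scale and of housekeeping subtraction.

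In the MAPKi group the members were near the dim end of the arrays. ETV1 lay above 20.1% to 31.6% of genes there, against 85.3% to 86.3% in vehicle. For ETV4 the range was 30.5% to 32.1%, against 93.4% to 94.9%, and for ETV5 it was 19.5% to 30.2%, against 90.3% to 93.1%. When each array's 5th percentile of intensity was subtracted as a background before taking logs, the falls were deeper, at -4.57 for ETV1, -5.02 for ETV4 and -5.18 for ETV5.

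No other measured ETS factor changed by as much as a PEA3 gene. Of 25 listed, 20 were measured. With MAPKi 12 passed as lower and 2 as higher, against 66.2% and 2.97% of all genes, and 6 did not pass. The median log2 change of the 20 was -0.48, the same as the -0.48 of all genes. After quantile normalization 4 were lower and 4 higher, with a median of -0.04, and after housekeeping subtraction 1 was lower and 15 higher. ETV6, a repressor of the family, fell most among them, by 1.72 ± 0.11 on the log2 scale (adjusted p = 4.25e-09), and it was lower under each scaling tried, from -1.72 to -0.66. ETV3 changed by -1.15 and the ERK-controlled repressor ERF by -1.02. After housekeeping subtraction ETV3 stood at -0.09 and ERF at 0.05, so the direction for ERF depended on the scaling. ELF4 changed by -0.88 on the deposited scale and by 0.18 after housekeeping subtraction. The 2 that rose were the epithelial factor EHF, by 0.88 ± 0.12 (adjusted p = 1.24e-05), and ELF1, by 0.64 ± 0.09 (adjusted p = 1.51e-05); both were higher under each scaling, and both were named after their values were seen. ETS2 at 0.07 and ETV3L at 0.02 did not pass on the deposited scale.

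**Figure D2:**
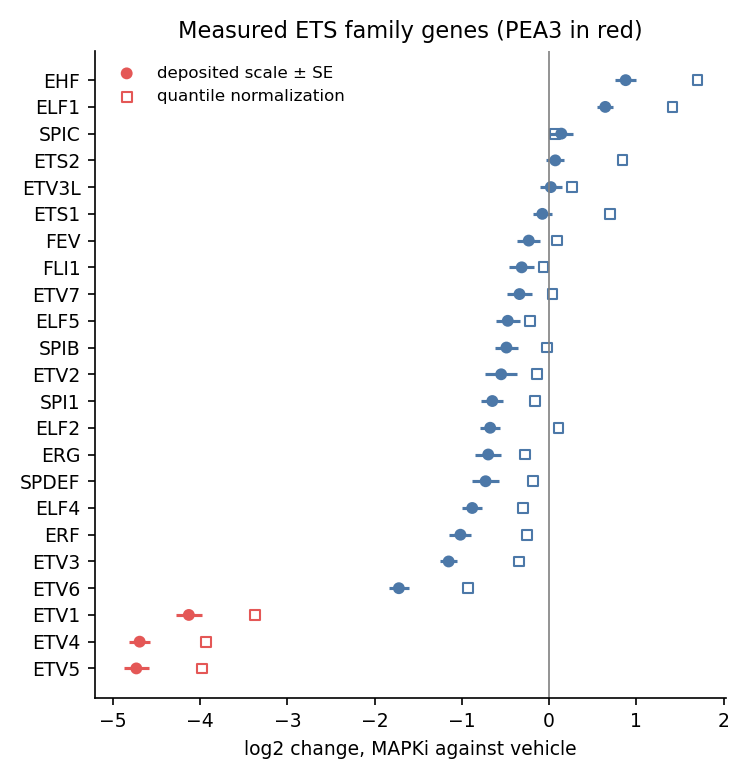
Log2 change with MAPKi against vehicle for the 23 measured ETS genes (horizontal axis), with the deposited scale as filled points ± SE and quantile normalization as open squares. ETV1, ETV4 and ETV5, in red, lie between -4.73 and -4.13 on the deposited scale, and the next gene, ETV6, is at -1.72.

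Genes linked to repression of the PEA3 genes, or to COP1 and the removal of proteins, were read beside them. Whether each of them acts on PEA3 genes or proteins in these cells was not tested. Of 13 listed, 9 were measured. CIC and COP1 were not analysed here. With MAPKi all 9 passed as lower, at a median of -1.03, where 66.2% of all genes passed as lower. After quantile normalization 4 of the 9 were lower and 1 higher, at a median of -0.24. After housekeeping subtraction 3 were lower and 4 higher. TRIB1, a pseudokinase that docks substrates on COP1, changed by -4.04 ± 0.11 (adjusted p = 1.69e-13), and its relative TRIB2 by -2.65 ± 0.11 (adjusted p = 2.73e-11). Both were lower under each scaling, with TRIB1 at -2.98 and TRIB2 at -1.58 after housekeeping subtraction. ATXN1, a partner of CIC, changed by -1.37 and was lower under each scaling as well. CUL4A, the cullin of the ligase, was at -1.06 on the deposited scale and 0.00 after housekeeping subtraction. The other CIC partner, ATXN1L, was at -0.59 and turned to 0.21 after quantile normalization.

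Among the kinases and scaffolds upstream, 6 of 15 listed genes were measured, and BRAF was not analysed here. With MAPKi 4 passed as lower and 1 as higher, against 66.2% and 2.97% of all genes. MAP2K1, which encodes MEK1, changed by -1.14, MAPK3, which encodes ERK1, by -1.001 and HRAS by -0.88. After quantile normalization these were -0.33, -0.20 and -0.16, and the list then had 1 lower and 2 higher. After housekeeping subtraction MAP2K1 was at -0.08, while MAPK3 and HRAS turned to 0.06 and 0.18. The scaffold KSR1 rose by 0.62 ± 0.11 (adjusted p = 0.000105) and was higher under each scaling. MAP2K2, at -0.13, did not pass on the deposited scale.

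Genes known as direct or early output of ERK fell with the members. Of 19 listed, 14 were measured and all 14 passed as lower, where 66.2% of all genes did. Their median log2 change was -2.60, against -0.48 for all genes. After quantile normalization 13 were lower and 0 higher, at a median of -1.84. The feedback inhibitor SPRY4 changed by -6.08 ± 0.12 (adjusted p = 1.16e-14) and SPRY2 by -4.87 ± 0.12 (adjusted p = 1.03e-13). DUSP6, the phosphatase that switches ERK off, changed by -4.52 ± 0.17 (adjusted p = 1.26e-11), and the AP-1 subunit FOSL1 by -3.72 ± 0.15 (adjusted p = 2.41e-11). All of these were lower under each scaling. ETV5 and ETV4 thus lay between SPRY2 and DUSP6 in the size of the fall, and ETV1 between DUSP6 and FOSL1; the gaps between these genes were not tested.

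FGF signalling is a known inducer of PEA3 genes. All 15 listed ligands and receptors were measured, at a median of -0.14 with MAPKi. Against 66.2% lower and 2.97% higher over all genes, 6 of the 15 passed as lower and 2 as higher. After quantile normalization 2 were lower and 6 higher, and after housekeeping subtraction 1 was lower and 12 higher, at a median of 0.92. FGFR1 changed by -2.04 ± 0.12 (adjusted p = 1.02e-09) and FGFR2 by 2.00 ± 0.10 (adjusted p = 2.81e-10), each in the same direction under each scaling. FGFRL1, a receptor without a kinase domain, was at -1.21 on the deposited scale. FGF2 was at -1.01 on that scale but at 0.06 after housekeeping subtraction. FGF7 at 0.01 and FGFR4 at -0.05 did not pass on the deposited scale.

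Among genes reported elsewhere as PEA3 targets, none of those measured changed with MAPKi by more than MET did. Of 15 listed, 11 were measured, at a median of -0.67 with MAPKi. Against 66.2% lower and 2.97% higher over all genes, 8 of the 11 passed as lower and 0 as higher, so this count says little. After quantile normalization 4 were lower and 2 higher, at -0.19, and after housekeeping subtraction 2 were lower and 6 higher, at 0.40. The receptor tyrosine kinase MET changed by -1.84 ± 0.10 (adjusted p = 4.91e-10) and the adhesion molecule ICAM1 by -1.49 ± 0.12 (adjusted p = 2.79e-08), and both were lower under each scaling. PTGS2, which encodes the prostaglandin synthase COX-2, changed by -1.23 on the deposited scale. MYB was at -1.02 and turned to 0.05 after housekeeping subtraction. MITF, which ETV1 can raise in melanoma, was at 0.12 ± 0.13 (adjusted p = 0.422) on the deposited scale and at 0.61 after quantile normalization. The chemokine receptor CXCR4, at 0.19 ± 0.20 (adjusted p = 0.408), did not pass either on the deposited scale.

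Entinostat alone asked whether the PEA3 genes change when HDACs are inhibited without dabrafenib and trametinib. ETV1 read 313.5, 299.4 and 266.4 with HDACi, each below the lowest vehicle array. ETV4 read 367.4, 417.0 and 403.6, and ETV5 read 438.0, 412.3 and 409.8. No HDACi array reached a vehicle array for any member. The share of all genes without such overlap was not counted, and the array medians were also lower with HDACi. The log2 change from vehicle was -1.01 ± 0.12 for ETV4 (adjusted p = 3.38e-06), a 2.02-fold fall. It was -0.61 ± 0.14 for ETV5 (adjusted p = 0.00218), or 1.53-fold lower, and -0.52 ± 0.15 for ETV1 (adjusted p = 0.00933), or 1.44-fold lower. Over all genes 37.2% passed as lower and 10.4% as higher, and the median change was -0.20.

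Of these falls, that of ETV4 held under each scaling: it was -0.63 after quantile normalization and -0.59 after housekeeping subtraction. Those of ETV1 and ETV5 did not. After quantile normalization ETV1 was at -0.12 (adjusted p = 0.565; 0.00172 to 0.565 over its alternatives) and ETV5 at -0.21 (adjusted p = 0.259; 0.000148 to 0.259). The split over all genes moved from 1513 higher and 5424 lower to 2694 and 3078 after quantile normalization, and to 5735 and 2178 after housekeeping subtraction. Ordered from the deepest fall, ETV4 stood 764 of 14599, ETV5 stood 2698 and ETV1 stood 3402.

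With HDACi 37.2% of all genes passed as lower and 10.4% as higher. Of the 20 other ETS factors 6 passed as lower and 1 as higher, at a median of -0.19. After quantile normalization 2 of the 20 were lower and 5 higher. ERG, the factor of blood and vessel development, rose by 1.10 ± 0.15 (adjusted p = 1.36e-05) and did so under each scaling. ERF changed by -0.66, ELF4 by -0.63 and ETV6 by -0.49, all nearer to 0 after quantile normalization, at -0.25, -0.40 and -0.11. The ERK output genes were divided, with 6 lower and 2 higher, or 4 and 4 after quantile normalization. FOSL1 changed by -1.70, SPRY2 by -1.33 and DUSP6 by -0.60, next to rises of DUSP5 by 1.29 and EGR1 by 0.60. Of the reported PEA3 targets 6 passed as higher and 1 as lower, at a median of 0.94, and this count was the same under the scalings tried. Those higher included the collagenase MMP13 at 3.10, CXCR4 at 2.31 and MET at 1.86. DUSP5, EGR1 and MMP13 were named after their values were seen.

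The combination asked whether entinostat alters the response to MAPKi. In it ETV1 read 40.03, 42.32 and 33.84, ETV4 read 37.8, 43.8 and 42.7 and ETV5 read 24.7, 26.4 and 23.6. All lay far below vehicle and HDACi. Against vehicle, ETV1 changed by -3.45 ± 0.15 (adjusted p = 2.18e-11), a 10.9-fold fall. ETV4 changed by -4.27 ± 0.12 (adjusted p = 4.68e-13), or 19.3-fold lower, and ETV5 by -4.69 ± 0.14 (adjusted p = 1.37e-12), or 25.8-fold lower. All 3 passed as lower, as did 74.3% of all genes. The split over all genes was 639 higher and 10840 lower, 3221 and 3542 after quantile normalization and 11506 and 1068 after housekeeping subtraction. From the deepest fall ETV5 stood 2, ETV4 stood 6 and ETV1 stood 16.

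The comparison of the combination with MAPKi alone uses the same combination arrays as that with vehicle. Every combination array of ETV1 and of ETV4 was brighter than every MAPKi array, whereas those of ETV5 lay within the range of its MAPKi arrays. The share of all genes whose arrays separate in this comparison was not counted. ETV1 was higher by 0.68 ± 0.15 (adjusted p = 0.00133), or 1.61-fold, and ETV4 by 0.42 ± 0.12 (adjusted p = 0.00659), or 1.34-fold. For ETV5 the difference was 0.04 ± 0.14 (adjusted p = 0.839), with a 95% interval of -0.26 to 0.35. Rises were uncommon there, with 8.68% of all genes higher and 40.6% lower, and a median change of -0.23. Quantile normalization gave 0.87 for ETV1, 0.60 for ETV4 and 0.14 for ETV5, and housekeeping subtraction gave 1.18, 0.92 and 0.54. Under the last of these ETV5 passed too (adjusted p = 0.00511; 0.00511 to 0.998 over its alternatives). The split over all genes was 1267 higher and 5933 lower on the deposited scale, 2897 and 3430 after quantile normalization and 6404 and 2032 after housekeeping subtraction.

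The rises were small in absolute signal. Adding HDACi to MAPKi raised the mean intensity of ETV1 by 14.2 units, of ETV4 by 10.6 and of ETV5 by 0.411. Without MAPKi, HDACi lowered it by 128.7, 406.8 and 228.2 units. The combination left ETV1 at 9.17% of its vehicle level, ETV4 at 5.19% and ETV5 at 3.87%. On the combination arrays ETV1 lay above 39.1% to 43.5% of genes, ETV4 above 41.4% to 47.1% and ETV5 above 25.4% to 27.8%.

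Comparisons with HDACi completed the order of levels. Against HDACi, the combination lowered ETV1 7.58-fold (adjusted p = 1.03e-09), ETV4 9.56-fold (adjusted p = 2.94e-11) and ETV5 16.9-fold (adjusted p = 2.67e-11), where 72.6% of all genes were lower. MAPKi against HDACi gave 12.2-fold, 12.8-fold and 17.4-fold lower levels (adjusted p = 3.29e-11, 1.39e-12 and 4.16e-12), where 39.4% were lower. After quantile normalization the splits were 1654 higher and 1707 lower for the former and 3586 higher and 2984 lower for the latter, against 94 and 10602 and against 1058 and 5755 on the deposited scale. Housekeeping subtraction made them 11863 and 422, and 8959 and 1705. On the deposited scale ETV1 and ETV4 therefore ran from vehicle through HDACi and the combination down to MAPKi, with all neighbours apart. ETV5 had the same order at the top, while the combination and MAPKi could not be told apart in it. The share of all genes whose groups separate in this way was not counted. After quantile normalization HDACi and vehicle arrays overlapped for ETV1, with an HDACi array at 8.12 and a vehicle array at 8.05. They also overlapped for ETV5, at 8.59 and 8.51, but not for ETV4.

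**Figure D3:**
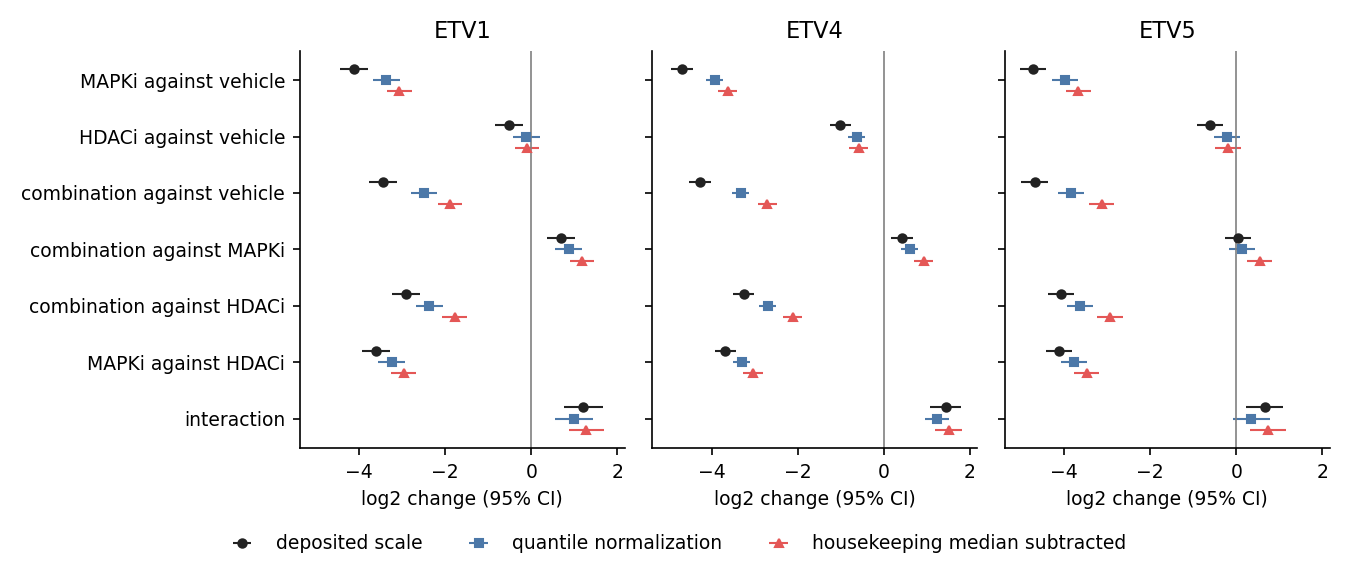
Log2 change of each member in each comparison (horizontal axis, bars are 95% intervals from limma), on the deposited scale and after quantile normalization or housekeeping subtraction. The changes of MAPKi against vehicle stay at or below -3.07 on every scale shown, whereas those of ETV1 and ETV5 with HDACi reach -0.10 and -0.19 after housekeeping subtraction.

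If the log2 changes of both treatments simply added, the combination would have read 16.7 for ETV1, 15.3 for ETV4 and 15.8 for ETV5. The measured geometric means were 38.6, 41.3 and 24.9, or 2.31, 2.71 and 1.57 times those values. The interaction term, which tests this departure, was 1.44 ± 0.17 for ETV4 (adjusted p = 5.67e-05) and 1.21 ± 0.22 for ETV1 (adjusted p = 0.00197). It was 0.66 ± 0.20 for ETV5 (adjusted p = 0.0627) and did not pass, though the 95% interval without adjustment ran from 0.22 to 1.09. Over all genes 3.16% passed with a positive interaction and 4.84% with a negative one. From the largest positive term ETV4 stood 23, ETV1 stood 52 and ETV5 stood 388. The summed levels of 16.7, 15.3 and 15.8 lie below the dimmest reading of any member, 19.6 for ETV1 on MAPKi replicate 3. On the log2 scale the summed levels are 4.06, 3.93 and 3.98. Other genes read lower on the same arrays. TYRP1 had a mean log2 of 3.31 with MAPKi and 3.33 with the combination, and TYR had 3.58 and 3.61. Whether the members' own probe sets could have read so low, and the part of such a limit in the terms, was not tested. For ETV5 the call turned with 2 arrays. Without vehicle replicate 2 its interaction was 0.80 (adjusted p = 0.0214) and without MAPKi replicate 2 it was 0.81 (adjusted p = 0.0169), within a range of 0.0144 to 0.291 over its alternatives. The split over all genes was 462 positive and 706 negative, 718 and 656 after housekeeping subtraction, and 911 and 910 after quantile normalization, where ETV1 and ETV4 still passed at 0.99 and 1.23.

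**Figure D4:**
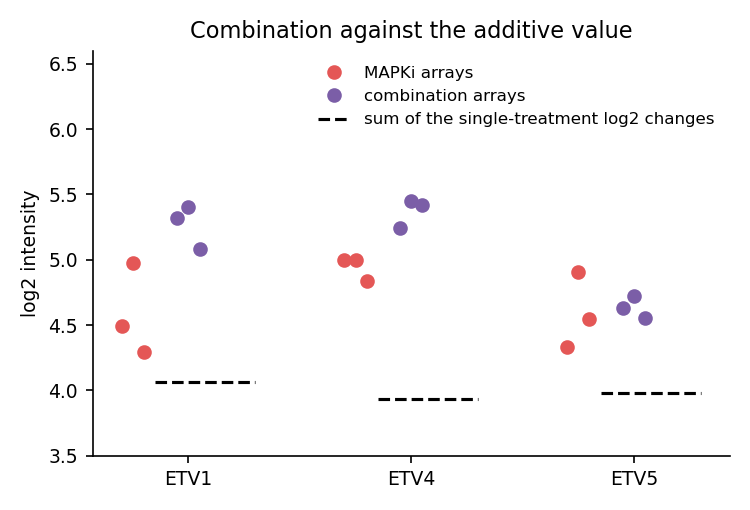
Log2 intensity of each member on the MAPKi and combination arrays (points), with the level that the sum of the 2 single-treatment log2 changes would give (dashed). All combination arrays lie above the dashed level, which corresponds to intensities of 15.3 to 16.7; ETV5 combination arrays overlap its MAPKi arrays.

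In the combination against MAPKi, 8.68% of all genes were higher and 40.6% lower on the deposited scale. Of 14 other ERK output genes 4 were higher and 2 lower there, at a median of 0.09. IER3 was at 1.18 and DUSP5 at 0.66, against FOSL1 at -0.92. SPRY4 and DUSP6, at -0.03 and 0.07, did not pass. Quantile normalization made this 8 higher and 2 lower, and housekeeping subtraction 11 and 2. TRIB1 rose by 0.85 ± 0.11 (adjusted p = 6.67e-06) and was higher under each scaling. Of the 9 genes linked to repression or degradation, TRIB1 alone passed as higher on the deposited scale. On that scale 7 passed as lower. After quantile normalization 2 were higher and 4 lower. Of the other ETS factors 1 passed as higher, ERG at 0.88, and 6 as lower, among them ELF1 at -1.46, with 3 higher and 2 lower after quantile normalization and 9 and 1 after housekeeping subtraction. Among reported targets 5 of 11 were higher, including MET at 2.16, and 2 were lower, including MITF at -1.09 ± 0.13 (adjusted p = 3.1e-06). The targets' counts were 5 and 1 after quantile normalization and 9 and 1 after housekeeping subtraction. IER3 was named after its value was seen.

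The members were then compared with each other as the difference of 2 log2 values on the same array. A log2 shift shared by all genes of an array cancels in it, but scaling that depends on intensity or a background does not. There were 12 such comparisons, and with 3 arrays against 3 the exact two-sided permutation test cannot go below 0.10, or 0.15 after adjustment over the 12. ETV1 minus ETV5 read 0.69, 0.68 and 0.52 on the combination arrays and -0.60, -0.43 and -0.79 on the vehicle arrays. These do not overlap, and the shift was 1.24 with a pooled SD of 0.14 (exact permutation p = 0.1). Relative to ETV5, then, ETV1 stood 2.37-fold higher in the combination than in vehicle. Against ETV4 the shift of ETV1 was 0.82 (pooled SD 0.18) and that of ETV4 against ETV5 was 0.42 (pooled SD 0.09), again without overlap. With MAPKi alone the fall of ETV1 was smaller than that of ETV4 by 0.56 (pooled SD 0.23) and than that of ETV5 by 0.60 (pooled SD 0.20), while ETV4 and ETV5 differed by 0.04 (pooled SD 0.21) and overlapped. All 3 genes were near the dim end of the arrays there, and the part of this in these shifts was not tested.

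With HDACi alone ETV4 had the largest fall. Its shift against ETV5 was -0.40 (pooled SD 0.11) and that of ETV1 against ETV4 was 0.49 (pooled SD 0.17), with no overlap of arrays in either case. ETV1 and ETV5 differed there by 0.09 (pooled SD 0.14) and overlapped. From MAPKi to the combination, ETV1 moved up relative to ETV5 by 0.64 (pooled SD 0.17) without overlap. ETV1 against ETV4, at 0.26 (pooled SD 0.25), and ETV4 against ETV5, at 0.38 (pooled SD 0.23), overlapped. Of the 12 shifts, those without overlap had an exact permutation p of 0.1, and the others had 0.2 to 0.9.

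**Figure D5:**
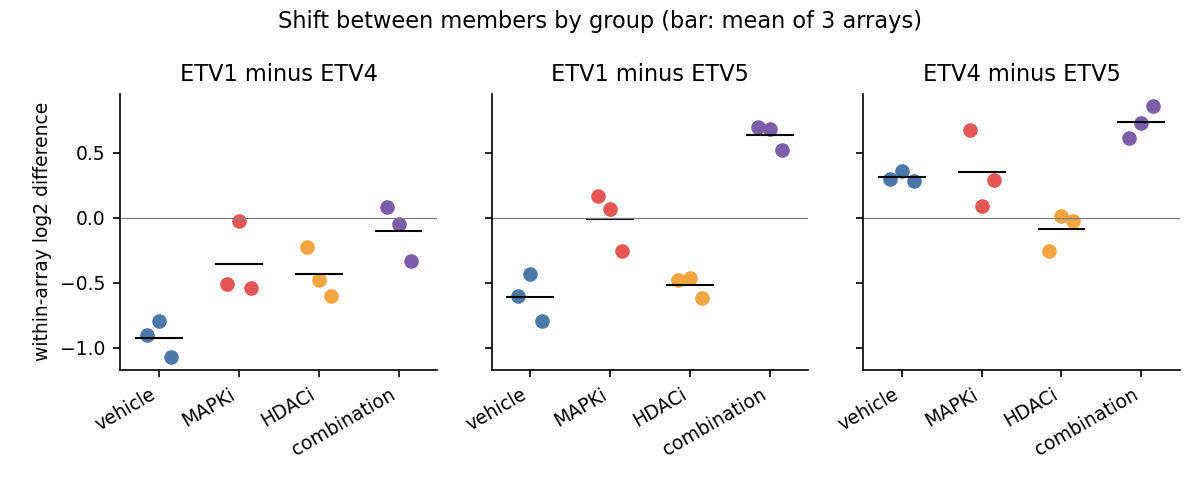
Within-array log2 difference between 2 members (vertical axis) on each array, by group, with the mean of 3 arrays as a bar. ETV1 minus ETV5 is lowest in vehicle, at -0.79 to -0.43, and highest in the combination, at 0.52 to 0.69.

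Likeness of pattern was measured as the root mean square difference in log2 value over the 12 arrays, each gene centred on its vehicle mean. For ETV1 the nearest of 14598 other genes was TRIB1, at 0.24, followed by UBASH3B at 0.32, SHISA2 and CEMIP at 0.34 and EFNA5 at 0.45. TRIB1 changed by -4.04 with MAPKi, -0.52 with HDACi and -3.20 with the combination, close to the -4.13, -0.52 and -3.45 of ETV1. ETV4 lay nearest to SPRY2, at 0.29, then to ETV5 at 0.32, DUSP6 at 0.33, EFNA5 at 0.54 and CEMIP at 0.56. ETV5 was nearest to DUSP6, at 0.31, then to ETV4 at 0.32, SPRY2 at 0.42, NPPC at 0.48 and ETV1 at 0.70. Among the members ETV4 and ETV5 were each the second nearest gene of the other. ETV1 stood 7 from ETV4 and 5 from ETV5 in their orders, and ETV5 stood 14 from ETV1. Pearson's r over the 12 arrays was 0.977 to 0.995 for these genes, as a description only, since the arrays fall into a low and a high set that any gene with a steep fall follows.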

How the data were processed

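The members and gene lists were chosen with earlier results of these data known. The deposited table holds linear intensities for 29592 probe sets on 12 Affymetrix arrays, which the authors made with RMA in Transcriptome Analysis Console, per the submitters' processing notes. For the scaling between arrays, the array annotation and the genome build, no source used here gives a statement. ERCC spike-in was added before RNA extraction, per the labels' protocols, and its use in scaling is not stated. The platform table gave 1 symbol to 14783 probe sets, several to 0 and none to 14809; RefSeq updated 0 symbols. Of 14599 genes, 169 had more than 1 probe set, and the brightest was used.

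The log2 of each deposited intensity was fitted by lmFit, contrasts.fit and eBayes (limma 3.58.1, R 4.3.3), with a mean per group over all 12 arrays, 8 residual and 7.68 prior degrees of freedom. A gene passed at a Benjamini-Hochberg adjusted p under 0.05 over all 14599 genes. Having 3 arrays per group limits the precision. The fit was tested on simulated data. Permutation tests used scipy 1.17.1 in Python 3.11.15.

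Genes named were the members, up to 4 passing genes with the largest change and 2 others per list with MAPKi, the 4 ETS factors changing most with HDACi, a few fixed genes (ATXN1L, ERF, TRIB1, DUSP6, SPRY4, MITF) and the 5 nearest patterns per member; others are marked in the text. Replicate numbers were not taken to pair the arrays, since the labels state no design with a block. After removal of group means, same-number r across genes had a median of 0.0324 (-0.106 to 0.121), against -0.0111 for other arrays. Even so, 9 of 12 arrays correlated most with their own number. Alternatives were 3 scalings, a background subtraction, leaving out the dimmest 40% of genes, another variance model, averaging the probe sets of a gene, fits on only the groups compared, the replicate block and each array left out.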

Additional observations from a re-analysis of the deposited data

Results flagged for a closer look

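For ETV1 the effect of MAPKi differed with and without HDACi by the interaction term of the fit: the log2 change was -4.13 without HDACi and -2.92 with it, a difference of 1.21 ± 0.22 (limma adjusted p = 0.00197). For ETV4 the changes were -4.69 and -3.26, a difference of 1.44 ± 0.17 (adjusted p = 5.67e-05). In both genes the fall was the smaller one where HDACi was present. Both members were near the dim end of the arrays in the MAPKi group, and the part of this in the difference was not tested; with the 5th percentile of each array subtracted the terms were 1.42 and 1.55.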

How the results depend on the processing

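Between 20 and 21 alternatives were run for each member and comparison, and no called value reversed. The falls of all 3 members with MAPKi and with the combination, and the rises of ETV1 and ETV4 from MAPKi to the combination, passed under every alternative run. With HDACi, ETV1 no longer passed after quantile normalization (-0.12), array median subtraction (-0.32), housekeeping subtraction (-0.10) or subtraction of the 5th percentile (-0.54), nor ETV5 after quantile normalization (-0.21) or housekeeping subtraction (-0.19). ETV5 passed in the combination against MAPKi after housekeeping subtraction (0.54), and without single arrays this difference ran from -0.09 to 0.20. Its interaction passed after array median (0.70) and housekeeping (0.73) subtraction, and at 0.66 without the dimmest genes or with trend and robust variance; leaving out single arrays gave 0.52 to 0.81. The cause was not tested. Shifts between members moved beyond 1 SD for ETV4 against ETV5 in the combination (0.52 after quantile normalization, 0.60 after subtracting the 5th percentile) and for ETV1 against ETV5 after subtracting the 5th percentile (1.42 against vehicle, 0.81 against MAPKi).

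The replicate block changed no call of a member; the ETV5 interaction was 0.66 (limma adjusted p = 0.0828) with it. The highest mean correlation was with the same number for 9 of 12 arrays, a hint from the data and not the design. Counts of genes called moved by over 1.5 times for MAPKi (10094, and 4235 after quantile normalization), the combination against vehicle (11479 and 6763) and against HDACi (10696 and 3361, and 6473 by array median), MAPKi against HDACi (6813, and 10664 by housekeeping subtraction) and the interaction (1168, 1821 by quantile and 1769 by array median). Counts for the gene lists under array median and housekeeping subtraction were added after the data were seen. Signal near the dim end of the arrays can limit how deep a fall can be measured. Whether it did so for the members was not tested.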
